A study of Homo sapiens with 8 samples.

Results

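The genes described here are 43 DNA replication genes, taken by symbol from the 63140 genes of a count table of RNA recovered by ChIRP. The list names S-phase and replication genes by their role. All 43 symbols were found and all 43 passed the filter on low counts that left 24057 genes for testing, with a lowest count of 38 in any library. ChIRP, chromatin isolation by RNA purification, captures RNA from fixed and sonicated cells with biotinylated probes. The target of the probes and an input library are not given in the labels, so every value is an amount of RNA in a pull-down, and a change in the cell, a change in capture, fewer cells of a kind and less RNA per cell cannot be told apart.

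MOLM13 and OCI-AML4 are established human acute myeloid leukaemia lines. Cells were nucleofected with Cas9 ribonucleoprotein, which cuts DNA (KO), or with a cytosine base editor (CBE), which changes cytosine to thymine with no need for a double-strand break, and the guides were directed at AAVS1, the control site, or at the long non-coding RNA HOTSCRAMBL. The 4 groups were AAVS1 KO and AAVS1 CBE, both labelled wild type, HOTSCRAMBL KO and HOTSCRAMBL CBE, all taken on day 3 after editing, so the control cells had also been nucleofected and edited. Each group held 2 libraries, replicate 1 labelled MOLM13 and replicate 2 labelled OCI-AML4. The values were edited populations of 1 library per labelled line and group, and nothing in the labels says that the cells were single clones. The p-values rest on the spread between these libraries, estimated over all 4 groups together. For each gene this estimate is also drawn toward that of other genes, so it is not the gene's own spread alone.

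Total counts ran from 20548300 to 37970163 per library. The table has 0 genes named HOTSCRAMBL, so the edit could not be checked on its target. Of 12 myeloid marker genes, the summed level lay between 2657 and 3101 CPM (the count over each 1e6 counts, after scaling by the trimmed mean of M-values, TMM) in all libraries, with 3059 and 3082 in the KO controls against 2694 and 2943 with HOTSCRAMBL KO, and 2924 and 3101 in the CBE controls against 2657 and 2863 with HOTSCRAMBL CBE. CD34 had a median of 0 CPM. Markers of other cells summed to at most 1.66 CPM (erythroid), 2.60 CPM (T cell), 5.40 CPM (epithelial) and 1.02 CPM (fibroblast), and the B-cell genes MS4A1 and CD79A had medians of 0. Within the myeloid list, LYZ, which encodes the lysozyme of granulocytes and monocytes, rose by 2.20 on the log2 scale with KO and AZU1 and ELANE, which encode azurophil granule proteins, had log2 fold changes of −0.89 and −0.57. CSF1R rose with KO (0.69), and with CBE PTPRC rose (0.67) and CSF3R fell (−0.38). The part of these markers in the results below was not tested.

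Replication starts when ORC, CDC6 and CDT1 load the MCM2-7 helicase on origins in G1 phase, a step called licensing. In S phase CDC45 and GINS join the helicase, polymerase alpha and primase start each strand, polymerase epsilon extends the leading and polymerase delta the lagging strand, and PCNA, loaded by RFC, holds the polymerases while FEN1 and LIG1 trim and seal the Okazaki fragments. Many of these genes are transcribed under E2F factors at the entry to S phase, and rapidly dividing leukaemia cells express them.

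Promoter sequence was read where the table of RefSeq promoters (GRCh38.p14) held the gene, which was so for 36 of 43 members. Those missing were MCM4, MCM5, GINS4, POLD3, RPA2, RPA3 and CCNE2. In the 250 bases before the first listed start, 4 E2F words (TTTCCCGC, TTTCGCGC, TTTGCCGC and TTTGGCGC) and the CCAAT box (CCAAT) were searched on both strands, overlaps allowed. An E2F word was present in 13 of 36 members (36.1%), against 2.79% of 27305 promoters of the same length, and CCAAT in 21 of 36 (58.3%), against 33.0%. Both were present in 8 members (22.2%) and in 1.08% of all promoters. The median GC content was 68.2% for the members and 58.0% for all promoters, and its part in these shares was not tested. A match is a string of letters and does not show that a factor was bound.

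The promoters below belong to members with the smallest p-values under the editors, and they show how the matches are placed in genes that went different ways. Of each window only the longest stretch outside every annotated exon (GENCODE v29) is printed, which left nothing of at least 100 bases for FEN1 and MCM7. Capitals mark E2F words and CCAAT on either strand. The stretches are chr6:52284882-52284992 (MCM3, minus strand), chr19:50384073-50384203 (POLD1, plus), chr12:132687366-132687592 (POLE, minus), chr20:5126627-5126785 (PCNA, minus) and chr19:4909251-4909429 (UHRF1, plus), all 5′ to 3′ along the gene.

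MCM3: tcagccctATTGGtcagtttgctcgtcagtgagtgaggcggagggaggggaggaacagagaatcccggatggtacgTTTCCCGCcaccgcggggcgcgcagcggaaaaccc
POLD1: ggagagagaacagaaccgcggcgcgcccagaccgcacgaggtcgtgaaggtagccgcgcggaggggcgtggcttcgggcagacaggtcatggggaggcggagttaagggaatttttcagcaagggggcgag
POLE: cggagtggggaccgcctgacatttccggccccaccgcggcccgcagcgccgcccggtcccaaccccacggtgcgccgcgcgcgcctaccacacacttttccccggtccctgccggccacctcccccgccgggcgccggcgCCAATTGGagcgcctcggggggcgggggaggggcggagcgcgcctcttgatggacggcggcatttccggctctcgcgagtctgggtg
PCNA: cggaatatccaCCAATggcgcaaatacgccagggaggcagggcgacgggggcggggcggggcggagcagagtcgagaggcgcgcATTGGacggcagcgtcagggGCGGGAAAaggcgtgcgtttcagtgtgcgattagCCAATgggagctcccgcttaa
UHRF1: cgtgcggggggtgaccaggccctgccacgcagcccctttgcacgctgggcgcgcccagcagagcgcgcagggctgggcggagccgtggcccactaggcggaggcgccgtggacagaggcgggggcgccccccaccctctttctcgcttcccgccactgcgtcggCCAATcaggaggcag

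PCNA held 3 CCAAT matches and 1 E2F word, with the E2F word before the last of them, MCM3 held 1 of each, POLE held a CCAAT that reads on both strands, UHRF1 held 1 CCAAT, and POLD1 held neither. The full windows of POLE and UHRF1 held 1 E2F word each, and that of MCM3 held 3 CCAAT in all, the others lying in the bases left out here. PCNA was higher and UHRF1 lower with CBE, while MCM3, POLE and POLD1 were lower with KO. Across the members, the median log2 fold change was −0.25 with an E2F word and −0.12 without it under KO, and 0.29 and 0.17 under CBE, given as a description of 13 and 23 genes.

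The first comparison asked what happened to replication genes when HOTSCRAMBL was targeted with Cas9. With KO, 6 of 43 members fell and 2 rose against AAVS1 KO. Those that fell were the helicase subunits MCM3 and MCM7, the helicase activator CDC45, the catalytic subunits POLD1 and POLE, and the ligase LIG1, and those that rose were the flap nuclease FEN1 and the cyclin CCNE2. Of all 24057 genes tested, 4.25% fell and 4.51% rose at an edgeR Benjamini-Hochberg adjusted p under 0.05, the threshold used throughout. The members are abundant, and genes are called more often at higher levels: of 11736 genes in the members' range of mean level (4.92 to 675 CPM), 8.14% fell and 7.48% rose. The members' shares were 13.95% and 4.65%. The median log2 fold change was −0.21 over the 43 members and −0.01 over all genes, with 29 members negative and 14 positive. The pair of libraries labelled MOLM13 gave a member median of −0.25 and the pair labelled OCI-AML4 −0.24. In 17 members both HOTSCRAMBL KO libraries lay below both controls, which was so for 23.8% of all genes, and in 4 both lay above, which was so for 21.0%.

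With cytosine base editing, 4 members rose (MCM6, PCNA, FEN1 and RRM1) and 4 fell (POLD1, LIG1, CCNE1 and UHRF1) against AAVS1 CBE. Over all genes 4.56% rose and 4.27% fell, and over genes in the members' range of level 8.45% rose and 7.91% fell. The members' shares were 9.30% in each direction, near that background. The median log2 fold change was 0.19 over the members and −0.02 over all genes, with 27 members positive and 16 negative, and the pairs of libraries gave 0.16 and 0.13. In 19 members both HOTSCRAMBL CBE libraries lay above both controls (22.7% of all genes), and in 9 both lay below (23.7% of all genes).

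All directions are relative to TMM scaling. Without scaling beyond the total count, the median of all genes shifted to −0.17 with KO and −0.15 with CBE, and the higher share of all calls went from 51.5% to 33.1% with KO and from 51.6% to 32.6% with CBE. The member medians became −0.37 and 0.05, which is −0.20 and 0.21 relative to all genes, against −0.20 and 0.21 with TMM. Scaling shifts all genes of a library by nearly the same amount. The values relative to all genes therefore had to stay nearly equal and are no check on the result. Without scaling 11 of 43 members were called with KO (2 higher, 9 lower) and 6 with CBE (2 higher, 4 lower). Of all 24057 genes, 840 were then called higher and 1695 lower with KO, and 782 higher and 1616 lower with CBE. With TMM these were 1085 and 1023 with KO, and 1096 and 1028 with CBE. Leaving out 1 library left between 5 and 8 calls with KO and between 3 and 6 with CBE, with the fewest without AAVS1 KO replicate 1 (5), AAVS1 CBE replicate 2 (3) and HOTSCRAMBL CBE replicate 1 (3), and fitting each editor's 4 libraries by themselves left 6 and 3.

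**Figure D1:**
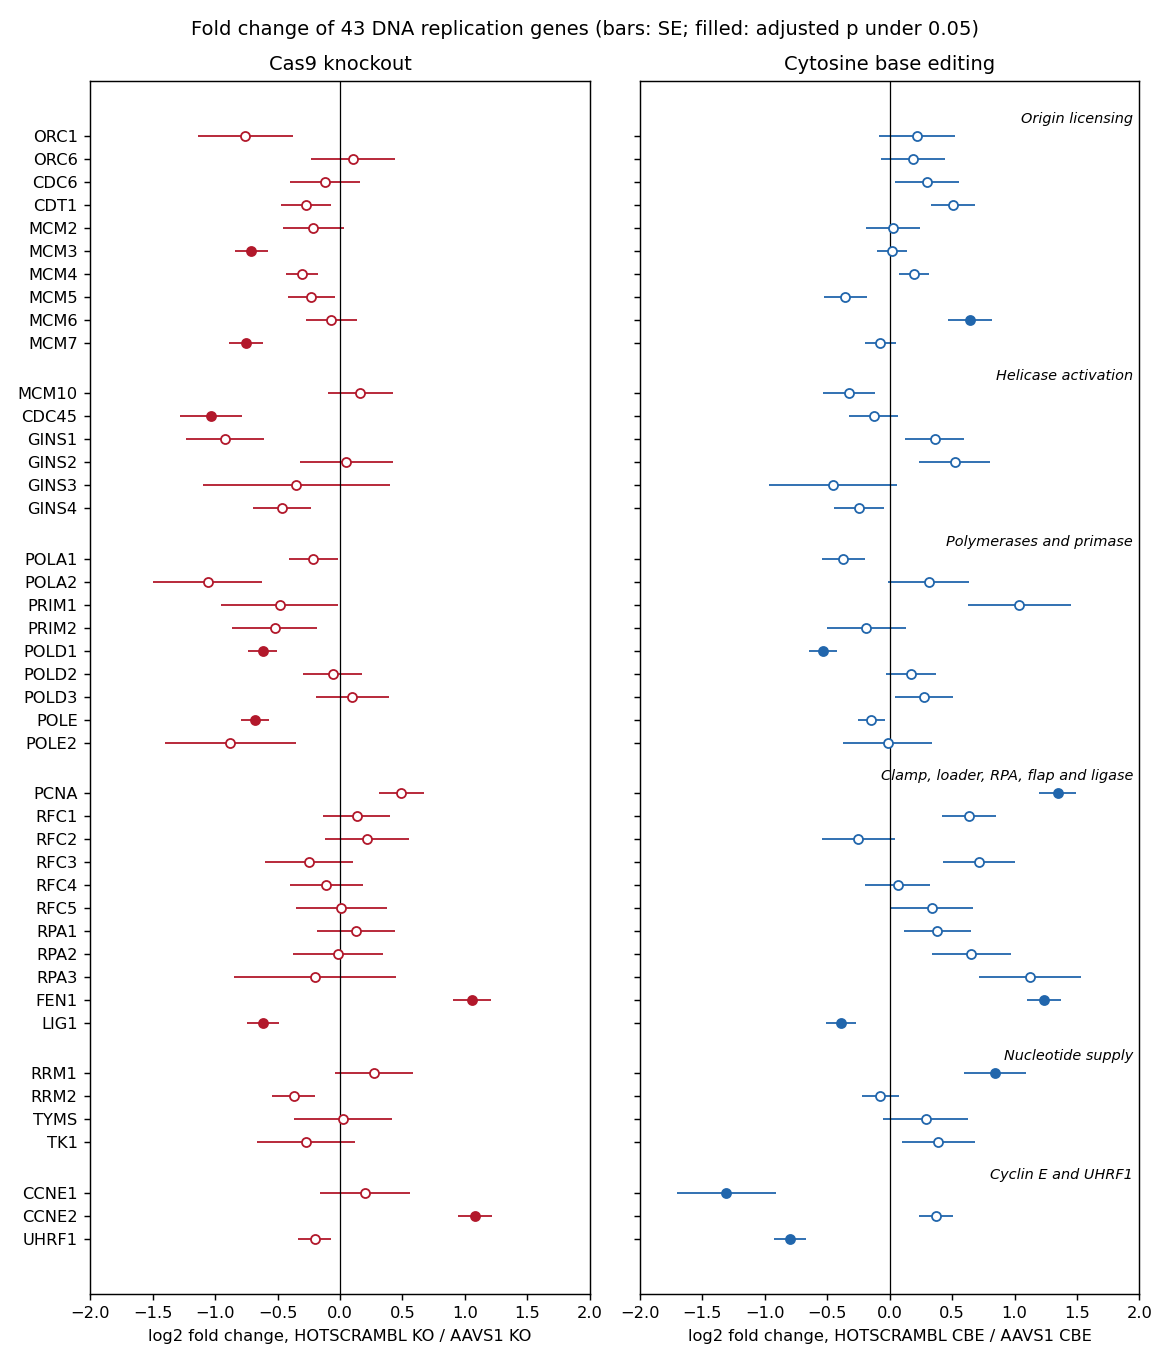
Log2 fold change of each of the 43 DNA replication genes with KO (left) and CBE (right), grouped by role, with bars of 1 standard error and filled points for an adjusted p under 0.05. With KO 6 filled points lie left of 0 and 2 right of it, and with CBE 4 lie on each side.

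Together 13 members were called by edgeR with KO or CBE, 3 of them with both (FEN1 higher, POLD1 and LIG1 lower), and 30 (69.8%) with neither. Of all genes tested, 1.65% were higher under both editors, 1.41% were lower under both, and 85.8% were called with neither. Calls went mostly to abundant members: 8 of 10 members with a mean of at least 100 CPM were called, and 5 of 33 below that level. Of all genes, 8.76% were called with KO and 8.83% with CBE, against 15.6% and 16.4% in the members' range of level. The share of all genes called on each side of 100 CPM was not computed, so this split is not shown to be particular to the members. The median standard error of the log2 fold change was 0.313 for uncalled and 0.133 for called members with KO, and 0.256 and 0.142 with CBE. Members that edgeR did not call reached −1.06 (POLA2, KO) and 1.12 (RPA3, CBE).

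Calls are given by role from here. Beside them stand the shares of all genes, 4.25% lower and 4.51% higher with KO, and 4.27% lower and 4.56% higher with CBE. In the members' range of level these were 8.14%, 7.48%, 7.91% and 8.45%. Origin licensing genes are the first group. ORC1 and ORC6 belong to the origin recognition complex, CDC6 and CDT1 load the helicase, and MCM2 to MCM7 form it. With KO 2 of 10 fell and none rose, with a median of −0.25, and 9 of 10 had a negative sign. With CBE 1 of 10 rose and none fell, with a median of 0.19 and 8 positive signs. Without scaling no licensing gene was called with CBE.

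MCM3 (ENSG00000112118, chromosome 6, 52264014 to 52284881, GRCh38 as for all positions), a subunit of the helicase ring, stood at 243 and 227 CPM in AAVS1 KO and at 146 and 141 CPM in HOTSCRAMBL KO, the MOLM13 label first here and below. Its levels were 249 and 199 CPM in AAVS1 CBE and 225 and 229 CPM in HOTSCRAMBL CBE. Both HOTSCRAMBL KO libraries were lower than the other 6, while the CBE groups overlapped. With KO the log2 fold change was −0.71 (SE 0.131, edgeR adjusted p 4.96e-04). With CBE it was 0.02 (SE 0.12, edgeR adjusted p 0.951).

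MCM7 (ENSG00000166508, chromosome 7, 100092233 to 100101940), another subunit, showed the same order. Its KO controls were at 215 and 187 CPM and the HOTSCRAMBL KO libraries at 132 and 108 CPM, while the CBE controls were at 217 and 181 CPM and HOTSCRAMBL CBE at 191 and 187 CPM. KO gave −0.75 on the log2 scale (SE 0.136, edgeR adjusted p 3.74e-04), and CBE gave −0.08 (SE 0.123, edgeR adjusted p 0.794). Of its exon bases 15.3% also belong to AP4M1 or MIR93. Reads were counted without strand or overlap options, so reads over these shared bases were left uncounted.

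MCM6 (ENSG00000076003, chromosome 2, 135839626 to 135876443) was called with CBE and not with KO, where its log2 fold change was −0.07 (edgeR adjusted p 0.894). Its levels of 59.6 and 50.8 CPM in AAVS1 KO and 52.1 and 52.9 CPM in HOTSCRAMBL KO overlapped. In AAVS1 CBE it stood at 55.1 and 52.4 CPM, and in HOTSCRAMBL CBE at 85.5 and 82.8 CPM, above all other libraries. The log2 fold change with CBE was 0.64 (SE 0.176, edgeR adjusted p 0.0181). That call ended in a fit of the 4 CBE libraries alone (0.0864), without scaling (0.071) and when any of the 4 CBE libraries was left out (0.161 to 0.233, all edgeR adjusted p).

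The other licensing genes were not called in either comparison with edgeR. MCM4, the most abundant of them, had 223 and 248 CPM in its KO controls against 188 and 194 CPM with HOTSCRAMBL KO, and 237 and 216 CPM in its CBE controls against 277 and 239 CPM with HOTSCRAMBL CBE, so the editors' groups separated in opposite directions without passing (log2 fold change −0.30 and 0.19, edgeR adjusted p 0.161 and 0.393). Without scaling MCM4 was called lower with KO (−0.46, edgeR adjusted p 0.0167). CDT1 had −0.27 with KO and 0.51 with CBE (edgeR adjusted p 0.503 and 0.0734), and DESeq2 called it higher with CBE (0.49, adjusted p 0.00323). ORC1 had −0.76 and 0.22, MCM2 −0.21 and 0.03, MCM5 −0.23 and −0.36, CDC6 −0.12 and 0.30, and ORC6 0.10 and 0.18. All 6 helicase subunits had a negative sign with KO, and 2 of 6 were called lower. With CBE their signs were mixed, and 1 of 6 was called higher. Of all genes, 4.25% fell with KO and 4.56% rose with CBE.

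**Figure D2:**
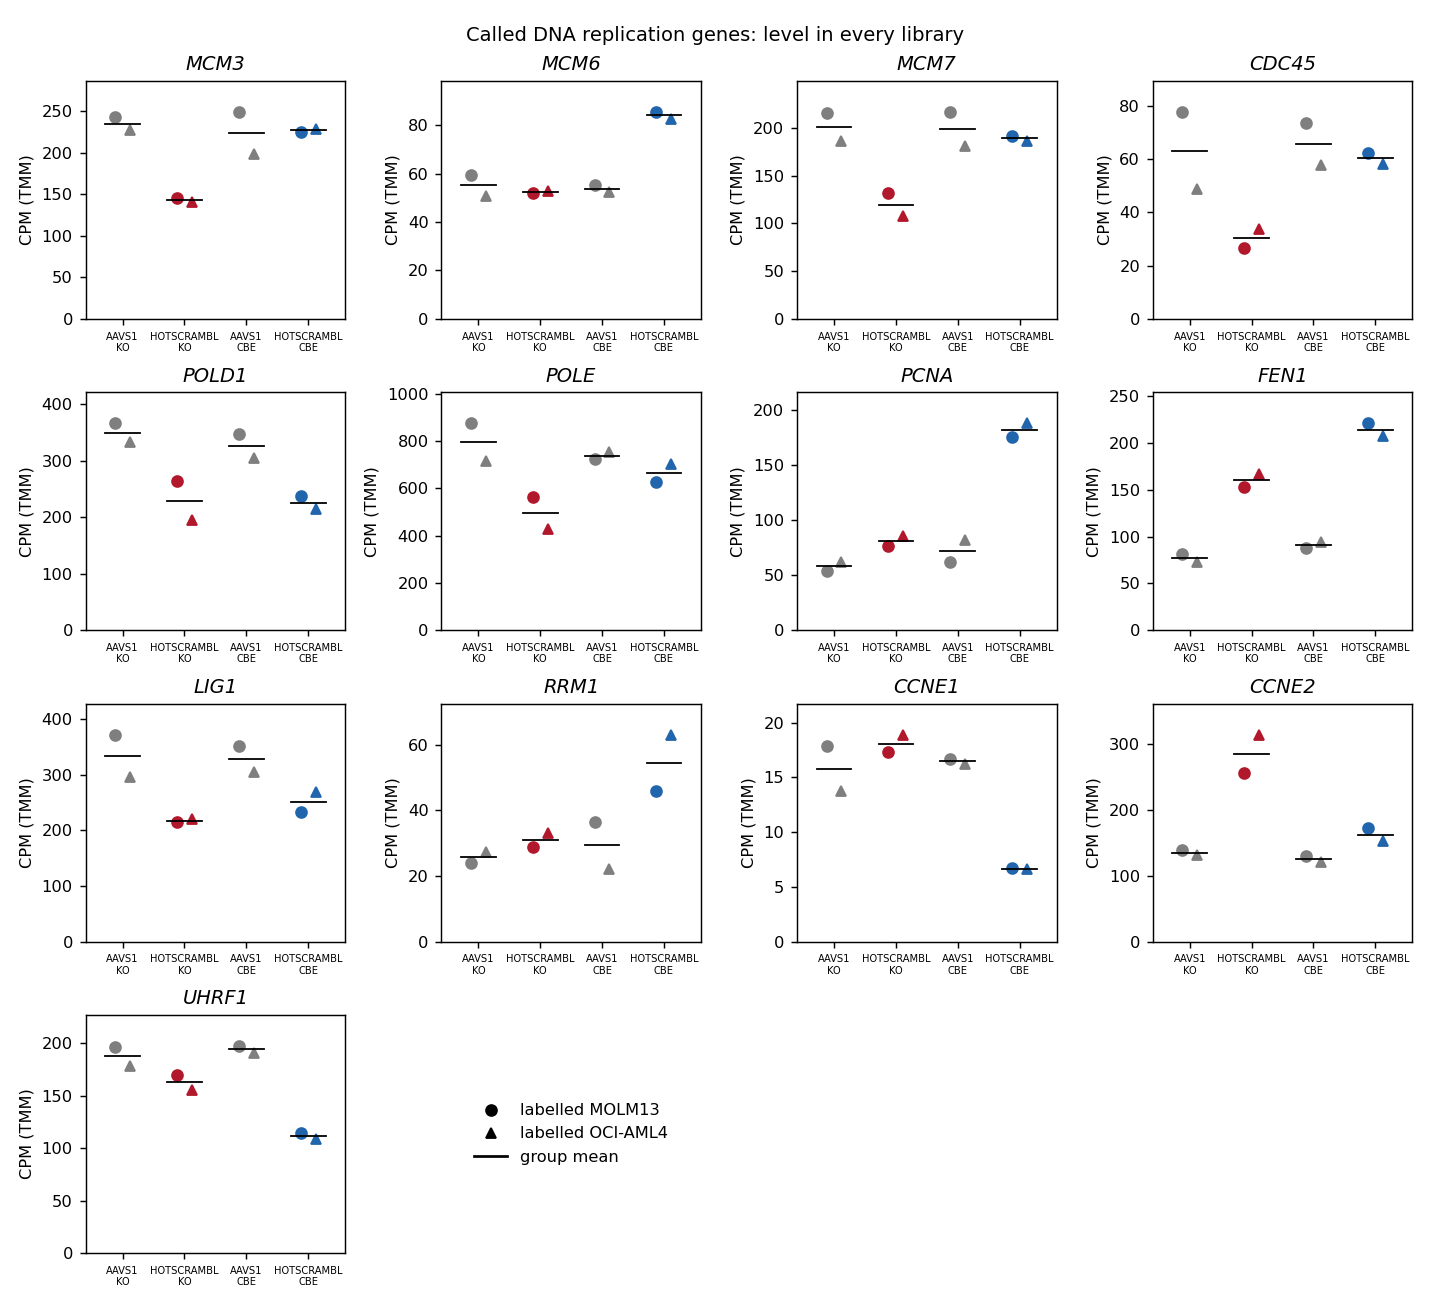
CPM after TMM scaling of each of the 13 called members in every library, by group on the horizontal axis, with circles for the MOLM13 label, triangles for the OCI-AML4 label and lines for the group mean. MCM3 and MCM7 are low in both HOTSCRAMBL KO libraries only, PCNA is high in both HOTSCRAMBL CBE libraries, and FEN1 is high under both editors.

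Helicase activation was led by CDC45 (ENSG00000093009, chromosome 22, 19479457 to 19520612), the subunit that joins MCM2-7 to make the active helicase. CDC45 levels were 77.7 and 48.7 CPM in AAVS1 KO and 26.7 and 33.9 CPM in HOTSCRAMBL KO. The groups did not overlap, and the pair labelled MOLM13 differed more than the pair labelled OCI-AML4. The log2 fold change was −1.03 (SE 0.248, edgeR adjusted p 0.00676). It was −0.72 (edgeR adjusted p 0.374) without AAVS1 KO replicate 1 and −0.70 (0.277) without HOTSCRAMBL KO replicate 1, and the edgeR adjusted p was 0.138 in the 4 KO libraries alone. With CBE the levels were 73.7 and 57.6 against 62.3 and 58.1 CPM, which overlapped (log2 fold change −0.13, edgeR adjusted p 0.776).

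With edgeR the 4 GINS subunits and MCM10, which helps to activate the helicase, were not called. GINS1 came closest, with 31.8 and 33.8 CPM in AAVS1 KO and 14.03 and 20.4 CPM in HOTSCRAMBL KO (−0.92 on the log2 scale with SE 0.311, edgeR adjusted p 0.0668), and it was called by DESeq2 (adjusted p 8.04e-04), by the earlier edgeR method (0.0181) and without scaling (0.0212). GINS2, GINS3 and GINS4 had 0.05, −0.35 and −0.47 with KO and 0.52, −0.46 and −0.25 with CBE, and DESeq2 called GINS4 lower with KO (−0.45, adjusted p 0.0417). GINS3, the least abundant member at a mean of 4.92 CPM, had a standard error of 0.748 with KO. Summed over the 6 genes, the level was 198 ± 19.7 CPM (SD, n = 2) in AAVS1 KO against 139 ± 3.94 with HOTSCRAMBL KO, and 227 ± 16.3 in AAVS1 CBE against 218 ± 8.58 with HOTSCRAMBL CBE.

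The polymerases and primase had a member median of −0.52 with KO, and 8 of 9 had a negative sign. Of the 9 genes, POLE and POLD1 fell with KO, POLD1 fell with CBE, and none rose. POLE (ENSG00000177084, chromosome 12, 132623753 to 132687376), the catalytic subunit of the leading-strand polymerase, was the member with the highest CPM, at 875 and 714 in AAVS1 KO and 566 and 429 in HOTSCRAMBL KO. Both HOTSCRAMBL KO libraries were lower than the other 6. The log2 fold change was −0.68 (SE 0.112, edgeR adjusted p 1.31e-04). With CBE the levels of 725 and 753 against 629 and 705 CPM did not overlap either, with a log2 fold change of −0.15 (edgeR adjusted p 0.49). The KO call was lost with limma-voom (adjusted p 0.0664), without AAVS1 KO replicate 1 (edgeR adjusted p 0.0917) and without HOTSCRAMBL KO replicate 2 (0.0608).

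POLD1 (ENSG00000062822, chromosome 19, 50384204 to 50418018), the catalytic subunit of the lagging-strand polymerase, fell under both editors. Its levels were 366 and 332 CPM in AAVS1 KO and 264 and 194 CPM in HOTSCRAMBL KO, then 347 and 305 CPM in AAVS1 CBE and 237 and 215 CPM in HOTSCRAMBL CBE. All 4 HOTSCRAMBL libraries were lower than all 4 controls. The log2 fold changes were −0.62 (SE 0.116, edgeR adjusted p 6.27e-04) and −0.53 (SE 0.112, edgeR adjusted p 0.00213). The edgeR adjusted p with KO was 0.0649 without AAVS1 KO replicate 2 and 0.0598 without HOTSCRAMBL KO replicate 2, and with CBE it was 0.0538 in the 4 CBE libraries alone and 0.0677, 0.0746 and 0.136 without AAVS1 CBE replicate 1, AAVS1 CBE replicate 2 and HOTSCRAMBL CBE replicate 1. POLD1 shares 8.63% of its exon bases with ENSG00000142539.

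The accessory and primase subunits gave wider errors. POLA2, the second subunit of polymerase alpha, had −1.06 with KO (SE 0.436, edgeR adjusted p 0.153), and the earlier edgeR method called it (−1.16, adjusted p 0.0312). PRIM1, the catalytic primase subunit, had −0.48 with KO and 1.04 with CBE (SE 0.414, edgeR adjusted p 0.136). POLE2 had −0.88 and −0.02, PRIM2 −0.52 and −0.19, POLA1 −0.21 and −0.37, POLD2 −0.06 and 0.17, and POLD3 0.10 and 0.27. The summed level of the 9 genes went from 1364 ± 142 to 908 ± 145 CPM (SD, n = 2) with KO and from 1297 ± 23.4 to 1129 ± 41.7 CPM with CBE, and POLE and POLD1 made up most of it.

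Among the clamp, its loader, the single-strand binding protein RPA, the flap nuclease and the ligase, 1 of 11 genes rose and 1 fell with KO, and 2 rose and 1 fell with CBE. The medians were 0.01 and 0.64, and the first became −0.15 without scaling. PCNA (ENSG00000132646, chromosome 20, 5114953 to 5126626), the sliding clamp, had the highest level of all members per kilobase of exon, a mean of 70.0 CPM per kilobase. It stood at 53.7 and 62.1 CPM in AAVS1 KO and 76.7 and 85.9 CPM in HOTSCRAMBL KO. With CBE it went from 62.2 and 81.9 CPM to 175 and 188 CPM, so the HOTSCRAMBL CBE libraries lay above all others. This was a 2.54-fold rise with CBE, 1.34 on the log2 scale (SE 0.148, edgeR adjusted p 3.15e-07), and KO gave 0.49 (SE 0.181, edgeR adjusted p 0.101), which the earlier quasi-likelihood method of edgeR called (adjusted p 0.0401). Over all alternatives the CBE value ran from 1.21 to 1.47 and stayed past the threshold. PCNA has 3 named pseudogenes, and reads that mapped to several places were not counted.

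FEN1 (ENSG00000168496, chromosome 11, 61792911 to 61797238), which removes the flap at the end of each Okazaki fragment, rose under both editors, and in the edgeR fit it was the only member to do so. It stood at 81.7 and 72.4 CPM in AAVS1 KO and 153 and 167 CPM in HOTSCRAMBL KO, then at 87.8 and 94.2 CPM in AAVS1 CBE and 221 and 207 CPM in HOTSCRAMBL CBE. The groups were far apart in the libraries of both labels. The log2 fold changes were 1.06 (SE 0.152, edgeR adjusted p 1.89e-05) and 1.24 (SE 0.137, edgeR adjusted p 3.67e-07), which are 2.08-fold and 2.36-fold, and neither call was lost under any alternative. With DESeq2, PCNA (0.51 with KO, adjusted p 8.08e-04) and CCNE2 (0.35 with CBE, adjusted p 0.040) were also higher under both editors.

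LIG1 (ENSG00000105486, chromosome 19, 48115445 to 48170603), the ligase that seals the fragments after FEN1, moved against it. Its levels were 372 and 296 CPM in AAVS1 KO, 215 and 219.6 CPM in HOTSCRAMBL KO, 351 and 305 CPM in AAVS1 CBE and 233 and 269 CPM in HOTSCRAMBL CBE. All HOTSCRAMBL libraries were lower than all controls. The log2 fold changes were −0.62 (SE 0.127, edgeR adjusted p 0.00176) and −0.39 (SE 0.121, edgeR adjusted p 0.0427). With KO the edgeR adjusted p was 0.261 without AAVS1 KO replicate 1, 0.113 without HOTSCRAMBL KO replicate 1 and 0.0576 in the 4 KO libraries alone. The CBE call was lost in 9 of 17 alternatives, with a log2 fold change of −0.19 without HOTSCRAMBL CBE replicate 1.

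The 5 RFC subunits, which load PCNA, and the 3 RPA subunits were not called. With KO they lay between −0.25 (RFC3) and 0.22 (RFC2). With CBE they lay between −0.25 (RFC2) and 1.12 (RPA3, SE 0.41, edgeR adjusted p 0.0948), and RFC1, RFC3 and RPA2 had 0.64, 0.71 and 0.65 (edgeR adjusted p 0.0748, 0.146 and 0.251). Summed over all 11 genes, the level was 651 ± 60.6 and 642 ± 45.3 CPM (SD, n = 2) in AAVS1 KO and HOTSCRAMBL KO, and 673 ± 8.44 and 890.1 ± 12.2 CPM in AAVS1 CBE and HOTSCRAMBL CBE.

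**Figure D3:**
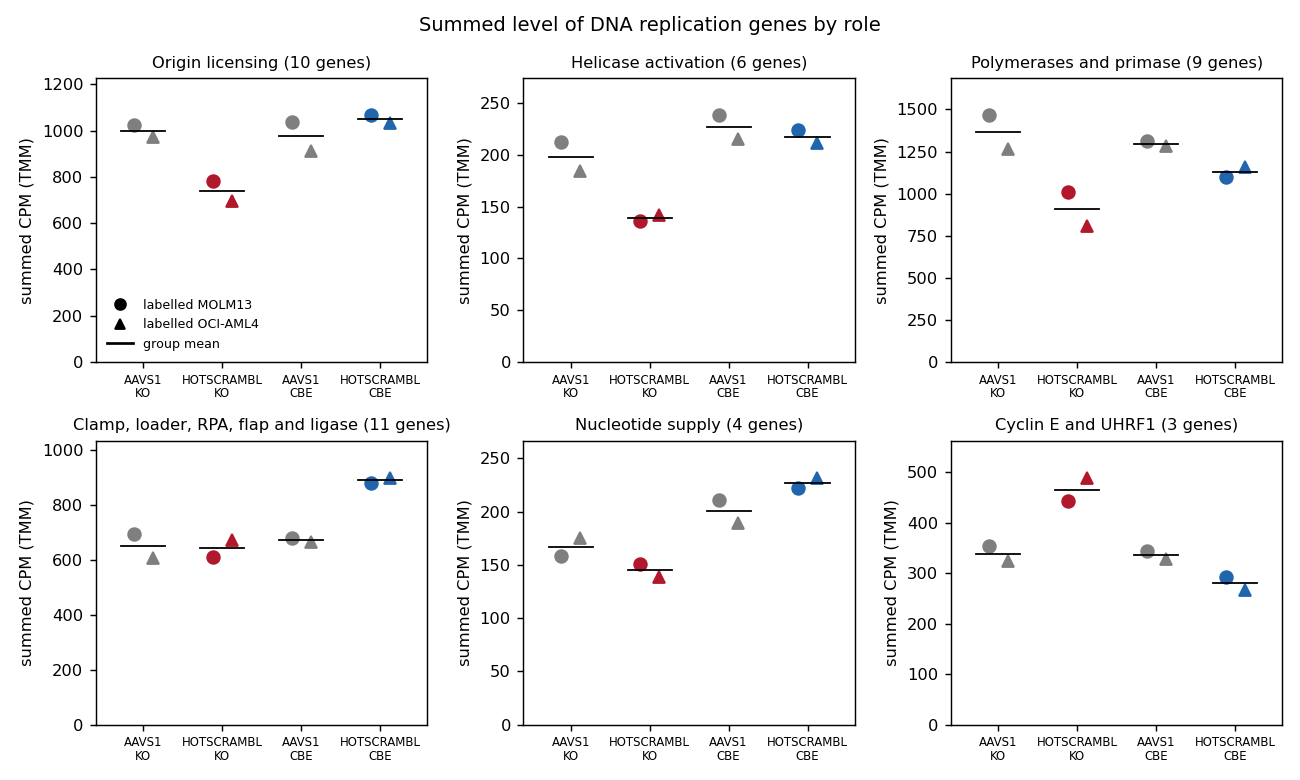
Summed CPM after TMM scaling of the members of each of 6 roles in every library, by group, with circles for the MOLM13 label, triangles for the OCI-AML4 label and lines for the group mean. Licensing and polymerase sums are lowest in HOTSCRAMBL KO, and the clamp, loader, RPA, flap and ligase sum is highest in HOTSCRAMBL CBE, near 890.1 against 673 CPM in its control.

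Nucleotide supply was covered by RRM1 and RRM2, the subunits of ribonucleotide reductase, TYMS, which makes thymidylate, and TK1, which salvages thymidine. None of 4 was called with KO and 1 rose with CBE. RRM1 (ENSG00000167325, chromosome 11, 4094707 to 4138932) stood at 24.1 and 27.3 CPM in AAVS1 KO, 28.9 and 32.9 CPM in HOTSCRAMBL KO, 36.5 and 22.2 CPM in AAVS1 CBE and 45.8 and 63.0 CPM in HOTSCRAMBL CBE. The CBE groups did not overlap, but the pair labelled MOLM13 differed by 0.33 and the pair labelled OCI-AML4 by 1.502 on the log2 scale. The fitted log2 fold change was 0.84 (SE 0.247, edgeR adjusted p 0.0298), and the call was lost in 9 of 17 alternatives, the 4 CBE libraries alone (0.206) and no scaling (0.0734) among them. The value ran from 0.40 (0.619) without AAVS1 CBE replicate 2 to 1.43 (0.021) without AAVS1 CBE replicate 1, and was 0.55 (0.466) without HOTSCRAMBL CBE replicate 2. RRM2, the more abundant subunit per kilobase, stood at 105 and 116 CPM in AAVS1 KO against 101 and 70.9 CPM with HOTSCRAMBL KO, and at 145 and 129.7 CPM in AAVS1 CBE against 134 and 127 CPM with HOTSCRAMBL CBE. Its KO groups did not overlap and its CBE groups did, and with TMM scaling neither difference was called (−0.37 and −0.08 on the log2 scale, edgeR adjusted p 0.212 with KO). Without scaling the KO difference was called (−0.53, edgeR adjusted p 0.0498). TYMS and TK1 had 0.03 and −0.27 with KO and 0.29 and 0.39 with CBE. TYMS shares 47.9% of its exon bases with ENOSF1 or TYMSOS and is the least certain member in that respect.

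The cyclins that drive entry into S phase with CDK2 went different ways. CCNE2 (ENSG00000175305, chromosome 8, 94879770 to 94896678) stood at 138 and 131 CPM in AAVS1 KO and 256 and 313 CPM in HOTSCRAMBL KO. In AAVS1 CBE it was at 130.1 and 121 CPM and in HOTSCRAMBL CBE at 171 and 152 CPM. The groups were apart under both editors, and only the KO difference passed, at 1.08 on the log2 scale (SE 0.137, edgeR adjusted p 2.72e-06) against 0.37 (SE 0.137, edgeR adjusted p 0.103). The KO call held in all 17 alternatives. Of the exon bases of CCNE2, 37.1% also belong to INTS8 or ENSG00000272509. Reads were counted without strand or overlap options, so reads over these shared bases were left uncounted.

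CCNE1 (ENSG00000105173, chromosome 19, 29811991 to 29824312), the other cyclin E, had levels of 17.9 and 13.8 CPM in AAVS1 KO and 17.3 and 18.9 CPM in HOTSCRAMBL KO, which overlapped. With CBE it went from 16.7 and 16.3 CPM to 6.71 and 6.61 CPM. The log2 fold change was −1.31 (SE 0.394, edgeR adjusted p 0.0346). Both pairs of libraries gave nearly the same value, −1.30 and −1.28, but at this level the call was lost in 8 of 17 alternatives: limma-voom, the 4 CBE libraries alone, and without either AAVS1 KO library or any of the 4 CBE libraries (adjusted p 0.0643 to 0.381).

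UHRF1 (ENSG00000276043, chromosome 19, 4903080 to 4962154), which brings the maintenance methyltransferase DNMT1 to newly replicated DNA, fell with CBE. Its levels were 197 and 191 CPM in AAVS1 CBE and 115 and 108 CPM in HOTSCRAMBL CBE, and 197 and 178 CPM in AAVS1 KO and 170.2 and 156 CPM in HOTSCRAMBL KO. The HOTSCRAMBL CBE libraries were the lowest of all. CBE gave −0.80 on the log2 scale (SE 0.128, edgeR adjusted p 8.33e-05), and KO gave −0.20 (SE 0.13, edgeR adjusted p 0.42).

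The next question was whether the editors differed, which the labels imply by pairing each with its own control. The difference of the 2 effects (KO minus CBE) passed for 4 members: MCM3 (−0.73, SE 0.178), MCM7 (−0.68, SE 0.183) and PCNA (−0.86, SE 0.235) had a lower effect of KO and CCNE2 (0.71, SE 0.194) a higher one, with edgeR adjusted p of 0.0187, 0.0382, 0.0409 and 0.0396. Over all genes 1.45% had a lower and 1.74% a higher effect of KO, and over genes in the members' range of level 2.68% and 3.06%. The median difference was −0.33 over the members, 35 of 43 with a negative sign, and −0.01 over all genes. It was −0.59 over licensing genes, −0.33 over polymerases and primase, −0.33 over clamp, loader, RPA, flap and ligase, and 0.71 over cyclin E and UHRF1. FEN1, POLD1 and LIG1, called under both editors, differed by −0.18, −0.09 and −0.23 and did not pass. Next to the threshold were POLE (−0.53, edgeR adjusted p 0.0644), UHRF1 (0.60, 0.0777) and GINS1 (−1.28, 0.0786). None of the 4 calls was left in a model without the labelled line, where the edgeR adjusted p was between 0.0748 and 0.141, and leaving out any 1 library left 0 calls, or 1 (CCNE2) without HOTSCRAMBL KO replicate 1. With RLE size factors 2 members were called and with DESeq2 10, so the number of members that differ between the editors is poorly fixed by these libraries.

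**Figure D4:**
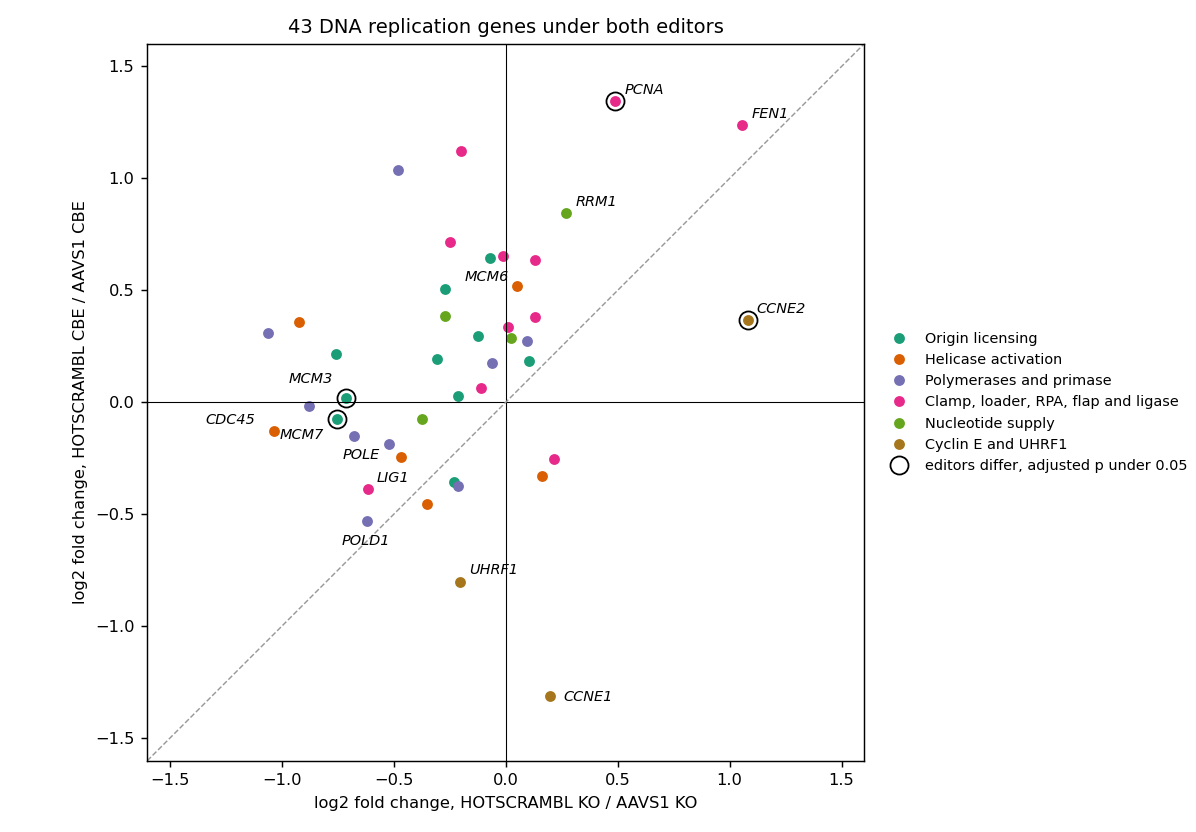
Log2 fold change of the 43 members with KO (horizontal) against CBE (vertical), coloured by role, with the line of equal effects dashed, called members named, and a ring where the editors differed at an adjusted p under 0.05. MCM3, MCM7 and PCNA lie above the dashed line and CCNE2 below it, and 35 of the 43 points lie above it.

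The controls gave the background between the editors. AAVS1 KO against AAVS1 CBE called 0 members and 0% of all genes with edgeR, with a lowest adjusted p of 0.991, and at an unadjusted p under 0.05 there were 2 members (MCM10, −0.75, and RRM2, −0.32) and 918 genes. DESeq2 called MCM10 alone of the members (adjusted p 0.0489). The member median was −0.01. Summed over all 43 members, the level was 3907 and 3529 CPM in AAVS1 KO and 3825 and 3594 CPM in AAVS1 CBE, against 3135 and 2945 CPM in HOTSCRAMBL KO and 3786 and 3802 CPM in HOTSCRAMBL CBE. Both HOTSCRAMBL KO libraries were below the other 6, and the HOTSCRAMBL CBE libraries fell within the range of the controls. Sums and shares of counts are weighted to abundant members. With KO the mean sum went from 3718 to 3040 CPM, and POLE alone went from 795 to 498 CPM. As a share of all counts before scaling the members made up 0.406% and 0.375% in AAVS1 KO and 0.299% and 0.273% in its HOTSCRAMBL counterpart. Under CBE the shares were 0.400% and 0.381% in the controls and 0.360% and 0.366% in the HOTSCRAMBL libraries, where the last pair is below its controls. The widest 95% Wilson interval, for AAVS1 KO replicate 1, ran from 0.403% to 0.408%, and such intervals cover counting error only.

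Between the labelled lines, 5 of 43 members and 2210 of 24057 genes had an unadjusted edgeR p under 0.05. After adjustment the lines differed in 0.495% of all genes and in 0 members with edgeR. With so few genes apart, a result seen under both labels is not shown to hold in 2 different lines. CDC6, a loading factor, had the lowest adjusted p. It stood at 38.1, 39.5, 33.7 and 37.7 CPM in the 4 libraries labelled MOLM13 and at 25.4, 19.4, 17.2 and 25.1 CPM in those labelled OCI-AML4, without overlap. The log2 difference was 0.77 (SE 0.192, edgeR adjusted p 0.0749), and limma-voom, DESeq2 and the earlier quasi-likelihood method of edgeR called it (adjusted p 0.0442, 9.77e-05 and 0.0274). POLD1, MCM7, POLA1 and CDT1 were the others under 0.05 before adjustment, with 0.22, 0.19, 0.27 and −0.27.

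Longer members tended to have lower log2 fold changes with KO and CBE. A correlation with length of similar size, 0.35, was found for the members between the labelled lines (MOLM13 against OCI-AML4), where edgeR called 0 members. It was 0.006 between the controls. Over the 43 members, the correlation of the log2 fold change with log exon length was −0.35 (Pearson) with KO and −0.36 with CBE, and over 12029 genes at or above the median level it was −0.09 and −0.06. Genes are not independent replicates and share their libraries, so this is a description.

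Other genes of the same machinery were read from lists of genes outside the 43. As background, 4.51% of all genes rose and 4.25% fell with KO, and 4.56% rose and 4.27% fell with CBE. Of 17 other origin and fork-protection factors, 1 rose and 3 fell with KO, and 2 rose and 1 fell with CBE. RECQL4, a helicase needed at origins, went from 417 ± 16.2 to 243 ± 13.2 CPM (SD, n = 2) with KO and from 399 ± 23.7 to 198 ± 14.3 CPM with CBE, which is −0.78 and −1.01 on the log2 scale (edgeR adjusted p 1.82e-05 and 3.03e-07). TIMELESS, which steadies the fork, fell with KO by 0.93 on the log2 scale and differed between the editors by −1.04. TICRR, which brings CDC45 to origins, fell with KO (−0.67). ORC3 rose under both editors (0.54 and 0.58), and DBF4, the activator of the CDC7 kinase, rose with CBE (1.19) and differed by −1.84.

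Of 18 other fork and chromatin factors, 2 rose and 7 fell with KO, a median of −0.62. With CBE 3 rose and 2 fell, a median of 0.07 that became −0.07 without scaling. The shares called were 50% with KO and 27.8% with CBE, against 8.76% and 8.83% of all genes. Among genes in the members' range of level they were 15.6% and 16.4%. NASP, a histone chaperone, went from 265 ± 49.2 to 112.04 ± 20.5 CPM with KO (−1.24, edgeR adjusted p 9.17e-08), and DNA2, a nuclease at flaps, from 28.3 ± 3.24 to 6.99 ± 1.81 CPM (−1.999, edgeR adjusted p 0.00182). CHAF1A, a subunit of the chromatin assembly factor that binds PCNA, fell under both editors (−0.79 and −0.88), as did CHTF18, part of an alternative clamp loader (−0.65 and −1.45). ATAD5, which unloads PCNA, fell with KO (−0.82). TOP2A, a topoisomerase, fell with KO (−0.61) and rose with CBE (1.04), and the editors differed by −1.65. The histone chaperone ASF1B rose from 19.2 ± 4.53 to 96.3 ± 4.73 CPM with KO (2.33, edgeR adjusted p 8.47e-08) and POLE3, a small subunit of polymerase epsilon, rose under both (0.64 and 0.70), while RNASEH2B rose with CBE (0.43).

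Of 18 other enzymes of nucleotide metabolism, 3 rose and 1 fell with KO, and 2 rose and none fell with CBE. The shares called were 22.2% and 11.1%, against 8.76% and 8.83% of all genes and 15.6% and 16.4% of genes in the members' range of level. SAMHD1, which breaks down deoxynucleotides and is abundant in myeloid cells, went from 184 ± 11.2 to 723 ± 12.04 CPM (SD, n = 2) with KO, which is 1.98 on the log2 scale (SE 0.11, edgeR adjusted p 5.03e-13), and stood at 203 ± 7.82 and 183 ± 8.33 CPM with CBE. RRM2B, a p53-regulated reductase subunit, rose with KO (0.70), DHODH of pyrimidine synthesis rose under both (0.42 and 0.42) and was also higher by 0.31 in the libraries labelled MOLM13, CAD of the same pathway fell with KO (−0.69), and PAICS of purine synthesis rose with CBE (1.25). Of 17 genes of the E2F and RB system, TFDP2, an E2F partner, fell with KO (−1.51, edgeR adjusted p 0.0159) and RB1, which restrains E2F, rose with CBE (0.60, edgeR adjusted p 0.0198). No E2F gene was called under either editor. E2F1 had −0.49 and −0.31, E2F3 −0.63 and 0.00, and E2F5 −0.58 and 1.02 (edgeR adjusted p 0.0535 with CBE).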

How the data were processed

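The authors counted reads per gene with featureCounts 2.0.6 on Ensembl 112 models of GRCh38, without strand, multi-mapping or overlap options and with the mates of a pair counted separately, per the file headers. The deposited values are raw counts. Between 71.75% and 74.91% of counts from 1 to 20 were even, so counting error is larger than the counts imply. The aligner's settings are not given in the sources used here.

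Genes were filtered with filterByExpr (minimum count 10), scaled by TMM and tested with the quasi-likelihood F test of edgeR 4.0.16 in R 4.3.3, with group and labelled line as terms (3 residual degrees of freedom) and Benjamini-Hochberg adjustment over all 24057 genes. The standard error is the size of the log2 fold change divided by the square root of F. Pair differences added 0.1 CPM. The line term pairs replicates by labelled cell line. Deviations of same-numbered libraries correlated between 0.0386 and 0.112 over 12029 genes. Replicates of a group differed by more than counting noise (chi-square per degree of freedom 38.8 to 46.7).

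Alternatives were no line term, RLE factors, no scaling, no filter, DESeq2 1.42.0, limma-voom (limma 3.58.1), the libraries of 1 comparison alone, halved counts and each library left out. The earlier quasi-likelihood method of edgeR was added after seeing the data. The scripts were tested on simulated data. The members and lists were chosen with earlier results of these data known. Every called member is named, up to 10 members per comparison by smallest adjusted p and the most abundant member of each role per kilobase get values per library, and at most 4 called genes per direction, list and comparison are named from the other lists, by smallest p. Genes of the E2F family are named beyond that rule, and were chosen after their values were seen. Python 3.11.15, pandas 2.3.3, scipy 1.17.1 and matplotlib 3.10.9 were used. The result of 1 marker gene, and the sum of its list, are not reported here.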

Additional observations from a re-analysis of the deposited data

Results flagged for a closer look

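For 4 of 43 DNA replication genes the effect of targeting HOTSCRAMBL differed between Cas9 knockout and base editing by a direct test of the difference. The edgeR adjusted p ran from 0.0187 to 0.0409. This share of 9.30% stood against 3.19% of all genes and 5.74% of genes in the members' range of level. None of the 4 calls was left without the line term, and those of MCM7 and PCNA were also lost with RLE factors. The KO effect minus the CBE effect was −0.73 for MCM3, −0.68 for MCM7 and −0.86 for PCNA, and 0.71 for CCNE2, on the log2 scale. The KO and CBE effects were −0.71 and 0.02 for MCM3, −0.75 and −0.08 for MCM7, 0.49 and 1.34 for PCNA, and 1.08 and 0.37 for CCNE2. Each group held 2 libraries, too few to ask whether a single library stood apart from its group.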

How the results depend on the processing

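Of 20 gene results, 7 kept their call under every alternative run (CCNE2, FEN1, MCM3 and MCM7 with KO, and FEN1, PCNA and UHRF1 with CBE), and 20 of 20 never changed direction. The 20 results were picked by their calls in these libraries. Every alternative refits some or all of the same libraries, so a kept direction is no independent check. Genes called over the whole table numbered 2108 with KO, 2124 with CBE and 767 for the difference. DESeq2 called 4150, 3351 and 2205, 35 between the controls and 715 between the lines, and the 4 libraries of a comparison alone gave 780 with KO and 677 with CBE. Without the replicate block (the line term) the difference called 503 genes and 0 members, and its member median was −0.36. Between the lines limma-voom called 265 and the earlier edgeR method 193. Leaving out each library gave 677 to 1674 genes with KO, 586 to 1885 with CBE, 226 to 372 for the difference, 26 to 65 between the lines and 0 to 0 between the controls.

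The member median with KO was −0.37 without scaling and −0.19 with RLE factors, DESeq2, the 4 libraries alone or halved counts. With CBE it was 0.054 without scaling. For the difference it was −0.30 with RLE, −0.35 without scaling, −0.34 without a filter, −0.35 with DESeq2, −0.40 with limma-voom, −0.32 with halved counts and −0.38 with the earlier edgeR method. Leaving out each library gave −0.26 to −0.19 with KO, 0.13 to 0.25 with CBE, −0.45 to −0.32 for the difference, −0.083 to 0.040 between the controls and 0.03 to 0.10 between the lines. Members called were 3 in the 4 CBE libraries alone, 2 with RLE and 10 with DESeq2 for the difference, 1 with DESeq2 between the controls, and 1 each with DESeq2, limma-voom and the earlier edgeR method between the lines. Leaving out each library gave 5 to 8 with KO, 3 to 6 with CBE, 0 to 1 for the difference, and 0 between the controls and the lines. The cause of these changes was not tested, and the fits that leave some libraries out also hold fewer of them. Where a fit left 1 library in a group, that library is assumed to vary like the others. For members under 100 CPM the standard errors limit what could be called.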
